A study of Homo sapiens with 6 samples.

Results

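Collagen genes and the genes of enzymes that build collagen were followed in WM3248, a human cell line from a primary (VGP) melanoma, after PPARGC1A was targeted. The members were every row of the deposited table whose symbol has the form of a collagen alpha chain (44 genes), together with 14 named genes for prolyl and lysyl hydroxylation, chaperoning, propeptide cleavage and cross-linking, 58 of 57688 rows in all. Of these, 38 had a mean level of at least 1 FPKM (fragments scaled by transcript length and library size) over the 6 libraries and are reported gene by gene, 26 chains and 12 enzymes. The siNC group (n = 3) received a commercial negative control siRNA and the siPGC1a group (n = 3) a single catalogue siRNA against PPARGC1A, which encodes the transcriptional coactivator PGC1-alpha. Both were given at 30 nM with a lipid reagent, and RNA was taken after 48 h. Both groups grew in the same low-serum medium with insulin, pituitary extract and epidermal growth factor. The siRNA sequences are not given in the sources used here, and results with 1 siRNA do not separate the target from other effects of that siRNA.

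Collagen chains assemble in the endoplasmic reticulum as trimers. Prolyl 4-hydroxylases stabilise the helix, lysyl hydroxylases prepare lysines for sugar addition and cross-links, and SERPINH1 (HSP47) escorts the folded trimer. After secretion, BMP1-type proteases remove the C-propeptide and lysyl oxidases cross-link the assembled molecules. Fibrillar collagens form the fibrils of connective tissue, type IV the network of basement membranes, type VI beaded filaments, and fibril-associated collagens decorate fibril surfaces.

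Libraries held about 25040000 to 26400000 reads, with 23842 to 24738 genes above 0. These depths are approximate, as they were recovered from the steps of the FPKM values within a preset search range. PPARGC1A itself fell from 0.974 ± 0.0597 to 0.389 ± 0.031 FPKM (SD, n = 3, ratio 0.399, limma adjusted p = 0.000234), about 259 to 287 reads in siNC and 96 to 116 in siPGC1a. All 6 melanocyte markers searched had a mean of at least 1 FPKM over the 6 libraries. MLANA was under it in siPGC1a replicates 1 and 2 (0.926 and 0.876 FPKM). The summed level of the 6 was 644 to 666 FPKM in siNC and 474 to 514 FPKM in siPGC1a. DCT had means of 394 FPKM in siNC and 253 FPKM in siPGC1a, and SOX10 of 246 and 230 FPKM. MITF, PMEL, MLANA and TYR had means of 1.44 to 7.24 FPKM in siNC. Of 8 fibroblast markers, 4 reached 1 FPKM. The summed level of the 8 was 60.2 to 60.6 FPKM in siNC and 52.2 to 55.3 FPKM in siPGC1a, and its part in the results below was not tested. THY1, ACTA2, LUM and FAP were at means of 28.5, 16.8, 8.51 and 5.19 FPKM in siNC and 26.45, 15.9, 6.38 and 4.24 FPKM in siPGC1a. PDGFRB, PDGFRA, DCN and DPT were at 0.944, 0.384, 0.13 and 0.00767 FPKM in siNC and 0.686, 0.171, 0.0517 and 0.015 FPKM in siPGC1a. The sum is carried by THY1 and ACTA2 and does not show the changes of the lower markers. Of the 3 endothelial markers listed, PECAM1 had no row under that symbol, and CDH5 and VWF were at means of 0.03 and 0.109 FPKM in siNC. Neither of the keratinocyte markers reached a mean of 1 FPKM (KRT5 at 0 in siNC, KRT14 at 0.369 to 0.52 FPKM there). Of the immune markers, PTPRC was listed at 0 in every library, and CD68, which is also found outside immune cells, was at 0.647 to 0.823 FPKM in siNC and 0.76 to 1.27 FPKM in siPGC1a. Within a bulk sample, fewer cells of a kind and less RNA per cell cannot be told apart.

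Most collagen enzymes and a good part of the chains were lower after PPARGC1A was targeted. Of the 26 chains, 13 fell, 2 rose and 11 did not pass the threshold (limma on log2(FPKM + 1), adjusted p under 0.05). Of the 12 enzymes, 11 fell, 0 rose and 1 did not pass, and 0 were higher at an unadjusted p under 0.05. Over all 12020 genes tested, 22.5% were called lower and 25.6% higher. The 3 siPGC1a values lay wholly below the 3 siNC values for 16 chains and 11 enzymes, against 27.4% of all genes, and wholly above for 2 chains and 0 enzymes, against 29.8%. Subtracting siNC from siPGC1a in log2(FPKM + 1), the median difference was -0.17 over the reported chains, -0.34 over the reported enzymes and 0.01 over all genes tested. The summed FPKM of all 44 chains was 1390, 1466 and 1427 in the siNC libraries and 1237, 1277 and 1151 in the siPGC1a libraries. The summed FPKM of the 14 enzymes was 1879, 1928 and 1920 in siNC and 1414, 1431 and 1360 in siPGC1a. Neither sum overlapped between the groups, and the ratio of group means was 0.856 for chains and 0.734 for enzymes.

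**Figure D1:**
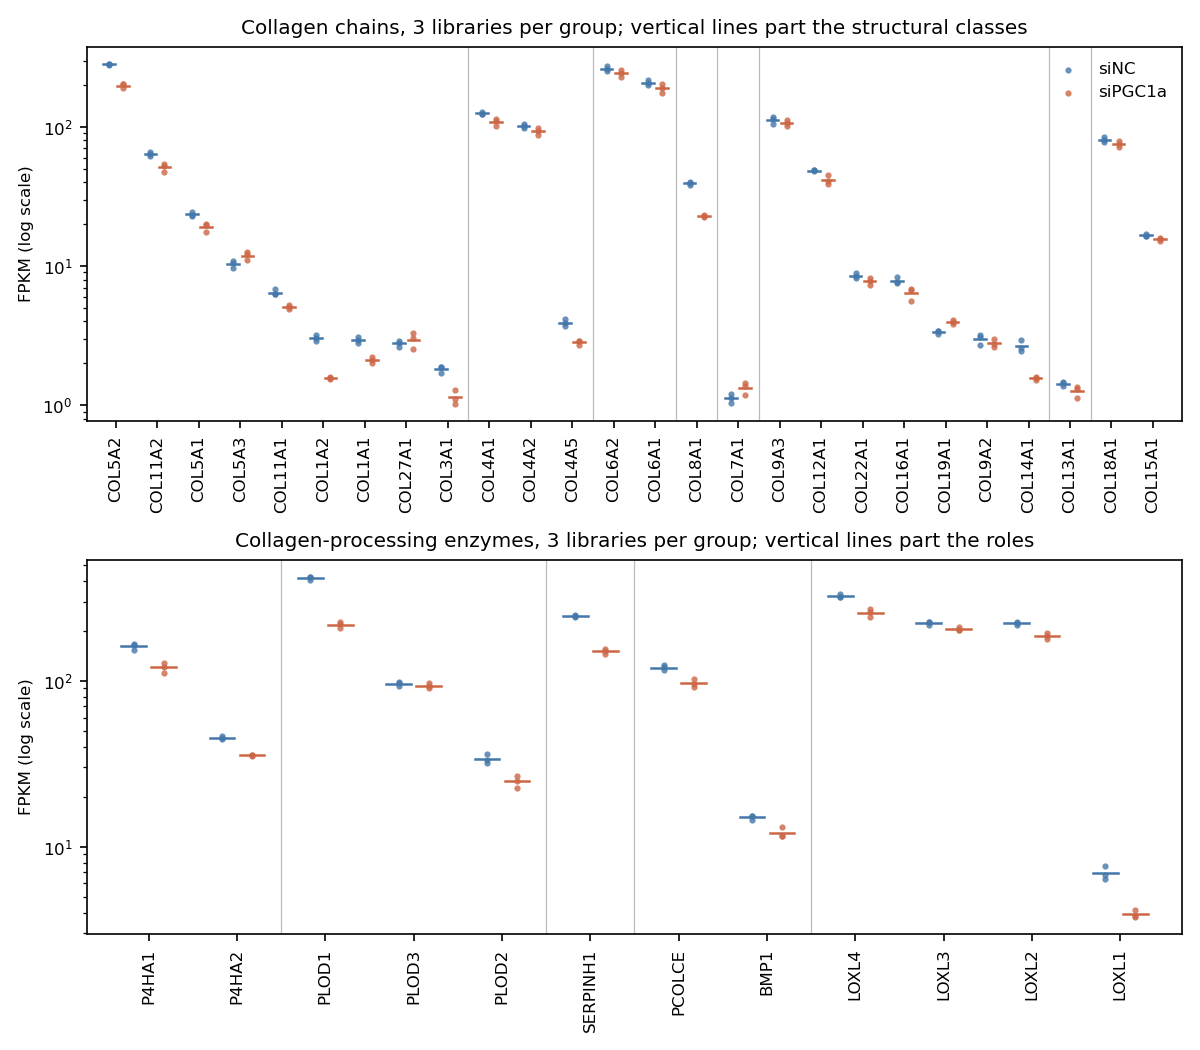
FPKM (log axis) of each reported chain (top) and enzyme (bottom) in every library, siNC in blue and siPGC1a in orange, with a bar at the group mean (n = 3). PLOD1, SERPINH1, LOXL1, COL8A1 and COL1A2 show wide gaps between the groups, whereas COL9A3, COL6A2 and PLOD3 overlap.

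Library siPGC1a replicate 3 held the lowest siPGC1a value for 22 of the 26 chains (84.6%) and 8 of the 12 enzymes, against 33.2% of all genes tested. Without that library, 13 chains were lower and 2 higher, and 11 enzymes were lower, so the counts were the same as with it. Library siNC replicate 1 held the lowest siNC value for 15 chains (57.7%) and 9 enzymes (75.0%), against 35.8% of all genes tested. Without it, 14 chains were lower and 1 higher, and 11 enzymes were lower.

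Among the modifying enzymes, the lysyl hydroxylase PLOD1, which acts on lysines of the helix, changed most. PLOD1 stood at 406, 422 and 422 FPKM with the control siRNA and at 219, 226 and 208 FPKM with siPGC1a. Every siPGC1a value was far below every siNC value. The mean went from 416.7 ± 9.46 to 217.7 ± 9.44 FPKM (SD, n = 3), a ratio of 0.522 (log2 difference -0.93, 95% interval -1.02 to -0.84, limma adjusted p = 5.54e-07). Its mean FPKM was the highest of any member in siNC, and in siPGC1a it was below those of LOXL4 and COL6A2. PLOD2, which hydroxylates lysines in the telopeptides at the chain ends, was at 36.0, 31.8 and 33.0 FPKM in siNC and 24.7, 22.7 and 26.8 FPKM in siPGC1a (ratio 0.736, limma adjusted p = 0.000555). PLOD3, which can also add sugars to hydroxylysine, was the enzyme that did not pass. It stood at 96.2 ± 2.71 and 93.4 ± 3.32 FPKM (SD, n = 3), with overlapping groups and a log2 difference of -0.04 (95% interval -0.13 to 0.05, limma adjusted p = 0.415). With quantile normalization it passed as lower (log2 difference -0.14, limma adjusted p = 0.0145). Of its exon bases, 429 overlap ZNHIT1 on the other strand.

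Both expressed prolyl 4-hydroxylase subunits fell. P4HA1, the common catalytic subunit, was at 167, 154 and 163 FPKM in siNC and at 122, 112 and 128 FPKM in siPGC1a. The groups did not overlap (ratio 0.746, log2 difference -0.42, 95% interval -0.54 to -0.30, limma adjusted p = 0.000205). P4HA2 went from 45.0, 44.8 and 46.5 FPKM to 35.7, 35.8 and 35.1 FPKM, without overlap (ratio 0.782, limma adjusted p = 7.12e-05). P4HA3 was at 0.0247 FPKM over the 6 libraries, 0 to 6 reads per library. P4HA1 and PLOD2 are known targets of hypoxia-inducible factors, so the bases before their starts were searched for the core ACGTG on both strands. It occurs in the 250 bases before the start of P4HA1 (at 86 bases) and of PLOD2 (at 146 and 200 bases), and in 18.5% of all 35116 promoter windows of that length. Of the 27 reported members with a window, 7 held the core in any of their windows. Among them were also COL11A2, COL12A1, COL15A1, COL5A1 and SERPINH1. A member can have several windows, so this count cannot be set against the share of single windows. For SERPINH1 the core lay in the window of another start than the one printed below. The windows of P4HA2 and PLOD1 did not hold it. A match is a description of the letters, not of a bound site. The P4HA1 window is shown because it carries the core near the start of the most abundant prolyl 4-hydroxylase gene (RefSeq, GRCh38.p14, chr10:73096867-73097116, minus strand), with the core, read on the other strand as CACGT, in capitals.
P4HA1: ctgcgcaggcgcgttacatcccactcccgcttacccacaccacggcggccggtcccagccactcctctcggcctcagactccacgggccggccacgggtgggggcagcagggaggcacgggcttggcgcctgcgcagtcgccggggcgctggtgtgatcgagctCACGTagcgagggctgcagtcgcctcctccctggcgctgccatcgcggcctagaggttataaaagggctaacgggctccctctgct

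SERPINH1, the collagen chaperone, gave the next largest fall among the enzymes and helpers in log2(FPKM + 1), although LOXL1 fell further by FPKM ratio. It was at 241, 249 and 244 FPKM in siNC and at 151, 154 and 145 FPKM in siPGC1a. The groups lay far apart relative to their spread, with means of 244.9 ± 4.25 and 150.4 ± 4.58 FPKM (SD, n = 3, ratio 0.614, log2 difference -0.70, 95% interval -0.78 to -0.62, limma adjusted p = 1.4e-06). SERPINH1 belongs to the heat shock genes by its regulation. Of 14 heat shock genes of the cytosol and mitochondria tested in the same libraries, 13 rose and 1, CRYAB, fell (limma), with a median log2 difference of 0.33. Among all genes tested, 25.6% were called higher and 22.5% lower. That list was drawn up with results of these data known and leaves out the chaperones of the endoplasmic reticulum, so it supports no statement on heat shock genes as a whole, and HSPA1A and HSPA1B on it are near-identical copies whose reads may be split. The promoter window of SERPINH1 is shown because it holds the letters of a perfect heat shock element, TTCNNGAANNTTC, searched on both strands together with its reverse-complement pattern. It begins 76 bases before the start and is in capitals (RefSeq, GRCh38.p14, chr11:75562003-75562252, plus strand, 1 of the annotated starts). Of all windows, 155 hold it (0.441%), and SERPINH1 was the only one of the 27 reported members with a window in the table that did.
SERPINH1: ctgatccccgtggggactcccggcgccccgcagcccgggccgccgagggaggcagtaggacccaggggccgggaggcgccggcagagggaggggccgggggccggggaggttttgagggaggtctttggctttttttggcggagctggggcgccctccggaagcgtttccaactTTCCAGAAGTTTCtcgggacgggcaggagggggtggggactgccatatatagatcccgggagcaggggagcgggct

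The transcripts for C-propeptide removal had FPKM ratios close to each other, and both fell. PCOLCE, which enhances the cleavage, was at 116, 124 and 120.4 FPKM in siNC and at 95.6, 103 and 91.8 FPKM in siPGC1a (ratio 0.806, log2 difference -0.31, limma adjusted p = 0.000605). BMP1, the protease itself, was at 14.4, 15.4 and 15.3 FPKM in siNC and at 11.5, 13.2 and 11.6 FPKM in siPGC1a (ratio 0.805, log2 difference -0.29, limma adjusted p = 0.0021). Neither gene overlapped between the groups.

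All 4 expressed lysyl oxidases were lower, by unequal amounts. LOX, the founding member of the family, was at 0.185 FPKM over the 6 libraries and was not tested. LOXL1, known for its role in elastic fibres, was at 6.41, 7.60 and 6.75 FPKM in siNC and at 3.78, 4.17 and 3.84 FPKM in siPGC1a (ratio 0.568, log2 difference -0.68, 95% interval -0.82 to -0.54, limma adjusted p = 3.31e-05). LOXL4, the most abundant, was at 319, 334 and 319.8 FPKM in siNC and at 269, 258 and 241 FPKM in siPGC1a (ratio 0.789, limma adjusted p = 0.000247). The smaller falls were those of LOXL2 and LOXL3. LOXL2 went from 217, 221 and 226 FPKM to 187, 193 and 177 FPKM (ratio 0.839, limma adjusted p = 0.000766). LOXL3 went from 218, 225 and 227 FPKM to 202, 211 and 201 FPKM (ratio 0.919, limma adjusted p = 0.0189). The LOXL3 call was lost without siNC replicate 2 (adjusted p = 0.0654), without siNC replicate 3 (0.0922), without a filter (0.079) and with quantile normalization (0.0718). Exons of LOXL3 overlap HTRA2 over 625 bases and DOK1 over 216 bases on the other strand. Since the strand setting of the read counting is not given in the sources used here, reads of such pairs cannot be told apart.

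**Figure D2:**
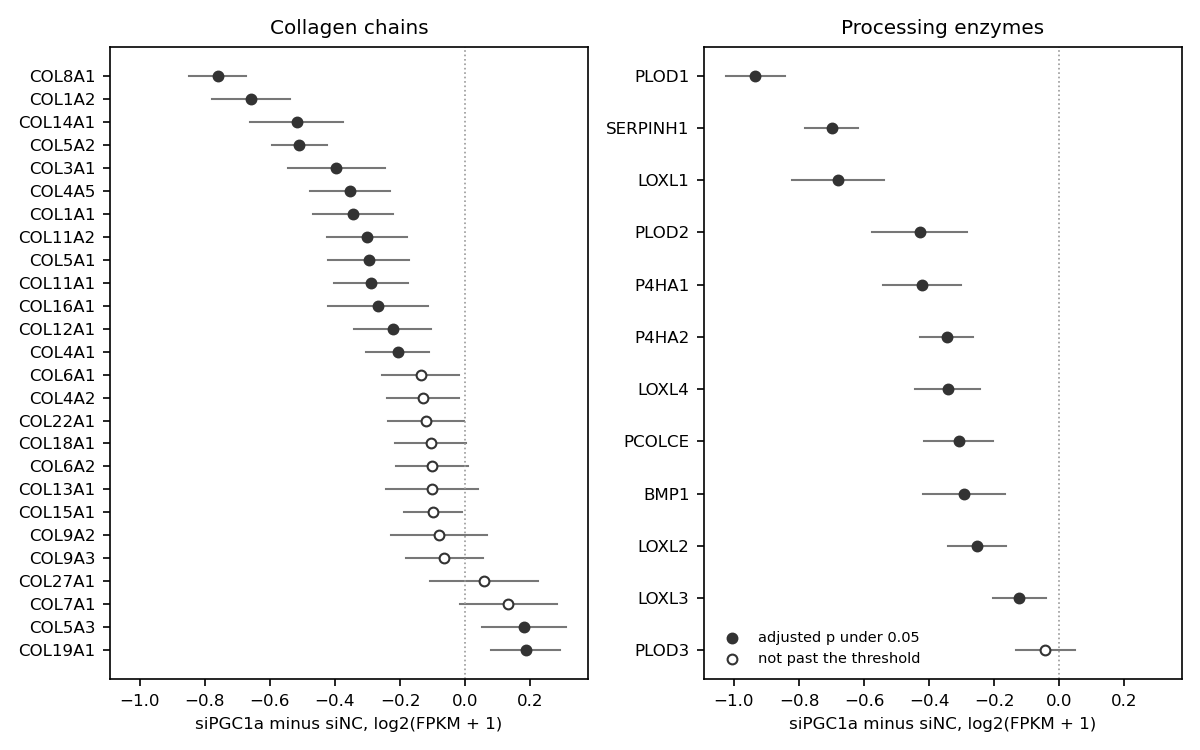
Difference between siPGC1a and siNC in log2(FPKM + 1) for each reported chain (left) and enzyme (right), with its 95% interval from limma (n = 3 per group). Filled points passed the adjusted threshold and open points did not. The enzymes run from -0.93 (PLOD1) to -0.04 (PLOD3) and the chains from -0.76 (COL8A1) to 0.19 (COL19A1).

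Among the chains, type VI, type V and type IV genes made up most of the collagen transcript per length. COL5A2, COL6A2 and COL6A1 held 52.7% of the summed chain FPKM in siNC and 51.7% in siPGC1a. The share of COL5A2 was 19.8% in siNC and 16.2% in siPGC1a, and that of COL6A1 was 14.6% and 15.5%. The 9 reported fibrillar chains included 7 that fell, 1 that rose and 1 that did not pass, with a median log2 difference of -0.30. COL5A2, a chain of type V collagen, which sets the diameter of mixed fibrils, was at 283, 281 and 283 FPKM in siNC and at 202, 203 and 189 FPKM in siPGC1a. The siNC values were nearly identical and all siPGC1a values lay well below them (ratio 0.702, log2 difference -0.51, 95% interval -0.59 to -0.43, limma adjusted p = 9.33e-06).

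Type I collagen, the main fibril of dermis and bone, was a minor transcript in these cells, and its chains fell by unequal amounts. COL1A2 was at 2.91, 3.03 and 3.19 FPKM in siNC and at 1.53, 1.59 and 1.57 FPKM in siPGC1a (ratio 0.513, log2 difference -0.66, limma adjusted p = 1.61e-05). COL1A1 was at 2.95, 2.81 and 3.08 FPKM in siNC and at 2.21, 2.11 and 2.01 FPKM in siPGC1a (ratio 0.716, log2 difference -0.34, limma adjusted p = 0.00076). The chains stood level in siNC, and COL1A2 was the lower of the pair in every siPGC1a library. COL3A1, the chain of reticular fibres, went from 1.87, 1.88 and 1.70 FPKM to 1.02, 1.29 and 1.12 FPKM (ratio 0.629, limma adjusted p = 0.00106), on about 180 to 336 reads per library. At these levels the added pseudocount of 1 FPKM makes the log2 difference smaller than that of the FPKM themselves.

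The chains of type V and XI collagen, which can mix in 1 fibril, did not all move one way. COL5A1 was at 23.0, 24.5 and 23.4 FPKM in siNC and at 20.1, 19.8 and 17.5 FPKM in siPGC1a (ratio 0.808, limma adjusted p = 0.00194). COL11A2, a chain known from cartilage, was at 61.5, 66.1 and 63.6 FPKM in siNC and at 52.7, 54.6 and 47.5 FPKM in siPGC1a (ratio 0.809, limma adjusted p = 0.00152). COL11A1 was at 6.82, 6.26 and 6.26 FPKM in siNC and at 5.28, 5.12 and 4.89 FPKM in siPGC1a (ratio 0.79, limma adjusted p = 0.00128). These 3 were lower without overlap. COL5A3 rose, from 9.73, 10.8 and 10.5 FPKM to 12.2, 12.5 and 11.0 FPKM (ratio 1.15, log2 difference 0.18, limma adjusted p = 0.026). Its call was lost without siNC replicate 1 (adjusted p = 0.0879), without siNC replicate 3 (0.0539), without siPGC1a replicate 1 (0.081), without siPGC1a replicate 2 (0.0792), without a filter (0.101) and with quantile normalization (0.0732). COL27A1, the other fibrillar chain reported, stood at 2.78 ± 0.128 and 2.95 ± 0.392 FPKM (SD, n = 3, limma adjusted p = 0.536).

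COL8A1, a short chain collagen of sheet-like networks, had the largest fall of any reported chain in log2(FPKM + 1), although by FPKM ratio COL1A2 fell further. It was at 39.7, 38.6 and 40.4 FPKM in siNC and at 22.8, 23.4 and 22.6 FPKM in siPGC1a. The gap between the groups was many times the spread within them (ratio 0.58, log2 difference -0.76, 95% interval -0.85 to -0.68, limma adjusted p = 1.24e-06). Its usual partner COL8A2 was at 0.631 ± 0.122 FPKM in siNC and 0.482 ± 0.065 FPKM in siPGC1a (SD, n = 3), under the filter and with overlapping groups.

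Of the 3 reported basement membrane chains, 2 fell and 1 did not pass, with a median log2 difference of -0.21. COL4A1 was at 124, 128 and 124.1 FPKM in siNC and at 109.7, 113 and 102 FPKM in siPGC1a (ratio 0.866, log2 difference -0.21, 95% interval -0.30 to -0.11, limma adjusted p = 0.00345). COL4A2 was at 98.5, 105 and 102 FPKM in siNC and at 94.0, 98.1 and 86.9 FPKM in siPGC1a. Its groups did not overlap either, but the adjusted p missed the threshold (ratio 0.914, log2 difference -0.13, 95% interval -0.24 to -0.02, limma adjusted p = 0.0523). COL4A5 fell from 3.69, 4.16 and 3.90 FPKM to 2.92, 2.91 and 2.72 FPKM (ratio 0.727, limma adjusted p = 0.000632). COL4A1 and COL4A2 are transcribed away from each other from a shared promoter. Their RefSeq starts leave 126 bases between them, printed here on the COL4A2 strand because this stretch serves both genes (GRCh38.p14, chr13:110307158-110307283, plus strand). A CCAAT box and an Sp1 box (GGGCGG), each searched on both strands, are in capitals. The CCAAT letters occur in 32.0% of all 250-base windows and GGGCGG in 42.6%.
COL4A1-COL4A2: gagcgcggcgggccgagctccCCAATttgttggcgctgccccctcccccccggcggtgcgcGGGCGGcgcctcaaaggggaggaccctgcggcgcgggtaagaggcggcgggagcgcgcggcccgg

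The abundant type VI chains did not pass, though COL6A1 and COL6A2 both did without siPGC1a replicate 2 (limma adjusted p = 0.0156 and 0.0444), and COL6A1 also without siNC replicate 1 (0.0481). COL6A2 was at 262.0 ± 11.3 and 244.0 ± 13.98 FPKM (SD, n = 3), with a log2 difference of -0.10 (95% interval -0.21 to 0.01, limma adjusted p = 0.112). COL6A1 was at 208 ± 8.04 and 189.5 ± 13.0 FPKM (SD, n = 3), with a log2 difference of -0.14 (95% interval -0.25 to -0.02, limma adjusted p = 0.0559). Both overlapped between the groups. COL6A3, whose chain completes the usual type VI trimer, was at 0.455 and 0.426 FPKM, far under its partners per length. The type IX chains were also uneven: COL9A3 was at 112 ± 7.08 and 107 ± 5.27 FPKM (SD, n = 3, limma adjusted p = 0.353), COL9A2 at 3.01 ± 0.272 and 2.79 ± 0.202 FPKM (SD, n = 3, limma adjusted p = 0.344), and COL9A1 at 0.102 and 0.117 FPKM. These levels are per length of transcript and say nothing of protein.

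Of the 7 reported fibril-associated chains, 3 fell, 1 rose and 3 did not pass. COL14A1 was at 2.96, 2.59 and 2.45 FPKM in siNC and at 1.60, 1.51 and 1.57 FPKM in siPGC1a (ratio 0.584, log2 difference -0.52, 95% interval -0.66 to -0.37, limma adjusted p = 0.000175). COL12A1, the most abundant of the 3 that fell, went from 48.9, 48.9 and 48.1 FPKM to 45.1, 40.8 and 38.9 FPKM (ratio 0.855, limma adjusted p = 0.0064). COL16A1 went from 7.57, 8.28 and 7.70 FPKM to 6.70, 6.80 and 5.60 FPKM (ratio 0.811, limma adjusted p = 0.00954), a call lost without a filter (adjusted p = 0.0636). COL19A1 rose from 3.41, 3.42 and 3.27 FPKM to 4.10, 3.97 and 3.85 FPKM without overlap (ratio 1.18, log2 difference 0.19, 95% interval 0.08 to 0.29, limma adjusted p = 0.01). COL22A1, known from tissue junctions, was at 8.54 ± 0.397 and 7.78 ± 0.427 FPKM (SD, n = 3, limma adjusted p = 0.0837).

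The remaining reported chains did not pass. COL18A1, whose cleavage releases endostatin, was at 81.1 ± 3.2 and 75.3 ± 4.09 FPKM (SD, n = 3, log2 difference -0.11, 95% interval -0.21 to 0.00, limma adjusted p = 0.0967), and 1401 of its exon bases overlap SLC19A1 on the other strand. COL15A1, its relative in basement membrane zones, was at 16.7 ± 0.362 and 15.6 ± 0.369 FPKM (SD, n = 3, limma adjusted p = 0.0692) without overlap between the groups. COL7A1, which anchors the basement membrane to the dermis, was at 1.13 ± 0.0846 and 1.33 ± 0.127 FPKM (SD, n = 3, limma adjusted p = 0.128). COL13A1, a transmembrane collagen, was at 1.43 ± 0.047 and 1.26 ± 0.117 FPKM (SD, n = 3, limma adjusted p = 0.209). COL7A1 and COL13A1, with means of 1.23 and 1.345 FPKM, were the members just inside the filter.

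Under the filter lay 18 chains, from 0 to 0.84 FPKM, and 2 enzymes. Just outside it were COL28A1 (mean 0.84 FPKM) and COL25A1 (0.686 FPKM). COL28A1 was at 0.96, 0.903 and 0.969 FPKM in siNC and at 0.715, 0.744 and 0.748 FPKM in siPGC1a, and COL25A1 at 0.744, 0.728 and 0.778 against 0.702, 0.568 and 0.597 FPKM. In all, 6 of these 18 chains had siPGC1a values wholly below the siNC values and 0 wholly above. Of all genes tested, 27.4% lay wholly below and 29.8% wholly above. Those shares are over rows that passed the filter, and ties near 0 keep groups from separating. They are therefore no background for these chains, and the counts are not a result about them. With every row above 0 tested, 2 of them, named after their values were seen, passed: COL4A4 (0.399 to 0.228 FPKM, limma adjusted p = 0.0332) and COL2A1 (0.165 to 0.088 FPKM, limma adjusted p = 0.0284), the latter on 14 to 29 reads per library. The share of all rows called lower in that fit is not given here, so the 2 calls are not a result about these chains. COL6A5 was at 0 in every library.

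A trimer takes up its chains in set proportions, which need not hold for their transcripts. The FPKM ratio of partners was taken within each library for the 6 pairs of a list of partner chains that had both chains reported. Other pairings, such as COL11A1 with COL11A2, were not on the list. Such a ratio does not depend on how a library was scaled. The COL1A1 to COL1A2 ratio was 0.969 in siNC and 1.35 in siPGC1a. On the log2 scale it went from -0.05 ± 0.065 to 0.43 ± 0.086 (SD, n = 3; difference 0.48, exact two-sided permutation p = 0.1). The COL5A1 to COL5A2 ratio was 0.0838 and 0.0964, a log2 difference of 0.20 (exact permutation p = 0.1). The COL4A1 to COL4A2 ratio was 1.23 and 1.17, a log2 difference of -0.08 (exact permutation p = 0.1), and the COL6A1 to COL6A2 ratio 0.795 and 0.776, a log2 difference of -0.03 (exact permutation p = 0.1). In each of these 4 pairs the groups did not overlap. Among all single genes tested, 27.4% lay wholly below and 29.8% wholly above. No such share was taken over other pairs of genes, so the 4 are not read as a trait of partner chains. An exact p of 0.1 is the smallest that 3 against 3 can give, and adjusted over the 6 pairs it was 0.15, so none can pass a threshold of 0.05. The COL11A1 to COL5A1 ratio (log2 difference -0.03, exact permutation p = 0.7) and the COL9A3 to COL9A2 ratio (0.04, exact permutation p = 0.3) overlapped between the groups. The COL9A3 to COL9A2 ratio was 37.3 in siNC.

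**Figure D3:**
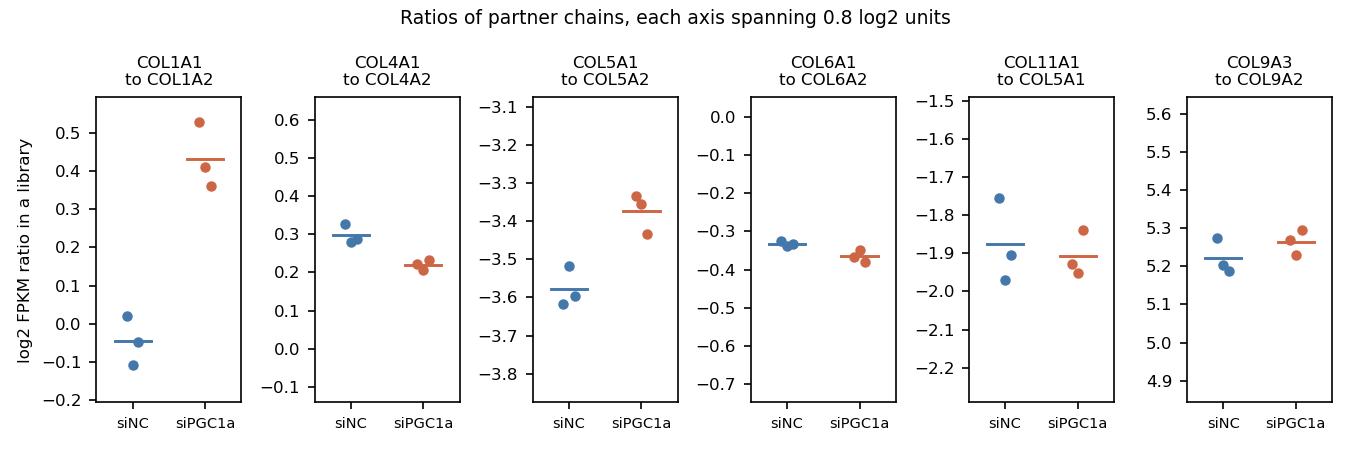
Log2 of the FPKM ratio of 2 partner chains in each library (points) with the group mean (bar, n = 3), siNC in blue and siPGC1a in orange; every axis spans the same length of 0.8 log2 units. The COL1A1 to COL1A2 ratio lies between -0.11 and 0.02 in siNC and between 0.36 and 0.53 in siPGC1a, while the COL6A1 to COL6A2 ratio differs by 0.03.

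The other genes of the pathway were counted over 6 further lists, of which 56 genes were tested: 29 were lower, 5 higher and 22 did not pass. Named here and below are up to 2 genes per list and direction, those with the smallest limma adjusted p. They are not typical of their lists. The median log2 difference was -0.265 for folding and modification, 0.112 for secretion and 0.039 for N-propeptide and other processing. It was -0.053 for turnover, -0.293 for receptors and -0.311 for fibril partners. Of 15 further folding and modification genes, 11 fell and 0 rose (limma), with 1 higher at an unadjusted p under 0.05. CRTAP, a part of the prolyl 3-hydroxylase complex, fell from 86.0 ± 1.75 to 42.5 ± 1.38 FPKM (SD, n = 3, ratio 0.495, limma adjusted p = 3.33e-07). P4HB, the partner subunit of the prolyl 4-hydroxylases and a protein disulfide isomerase, fell from 465 ± 6.04 to 342.5 ± 13.0 FPKM (SD, n = 3, ratio 0.737, limma adjusted p = 1.9e-05). Of 10 secretion genes, 4 were higher, 0 were lower (0 also at an unadjusted limma p under 0.05) and 6 did not pass, beside 25.6% higher and 22.5% lower among all genes tested. SEC13, a coat protein of the vesicles that leave the endoplasmic reticulum, rose from 24.4 to 31.1 FPKM (limma adjusted p = 0.000315), and SAR1A, the GTPase that starts the coat, from 17.7 to 20.9 FPKM (limma adjusted p = 0.00502). None of the 4 tested N-propeptide and other processing genes passed limma, adjusted or not (0 of 4).

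Outside the cell, most of the collagen receptors and fibril partners tested were lower, beside 22.5% of all genes tested. Of 8 receptor genes, 7 fell and 0 rose (0 also at an unadjusted limma p under 0.05). ITGA2, the alpha subunit of a collagen-binding integrin, fell from 7.22 ± 0.355 to 4.07 ± 0.356 FPKM (SD, n = 3, ratio 0.564, limma adjusted p = 2.29e-05), and ITGA11 from 4.83 to 3.44 FPKM (limma adjusted p = 0.00027). Of 10 fibril partners, 8 fell and 0 rose (0 also at an unadjusted limma p under 0.05), among them THBS1, a matricellular glycoprotein (52.3 to 33.9 FPKM, limma adjusted p = 1.89e-05), and FBN1, the microfibril protein fibrillin (9.18 to 6.90 FPKM, limma adjusted p = 0.000153). Of 9 turnover genes, 3 fell, 1 rose and 5 did not pass, counts near or under the shares of all genes (22.5% lower, 25.6% higher). MMP2 and CTSK, a gelatinase and a lysosomal collagenase, fell to ratios of 0.361 and 0.522 (limma adjusted p = 6.87e-08 and 1.34e-06), whereas MMP1, the interstitial collagenase, rose from 19.9 ± 0.657 to 26.5 ± 3.07 FPKM (SD, n = 3, ratio 1.33, limma adjusted p = 0.00171).

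**Figure D4:**
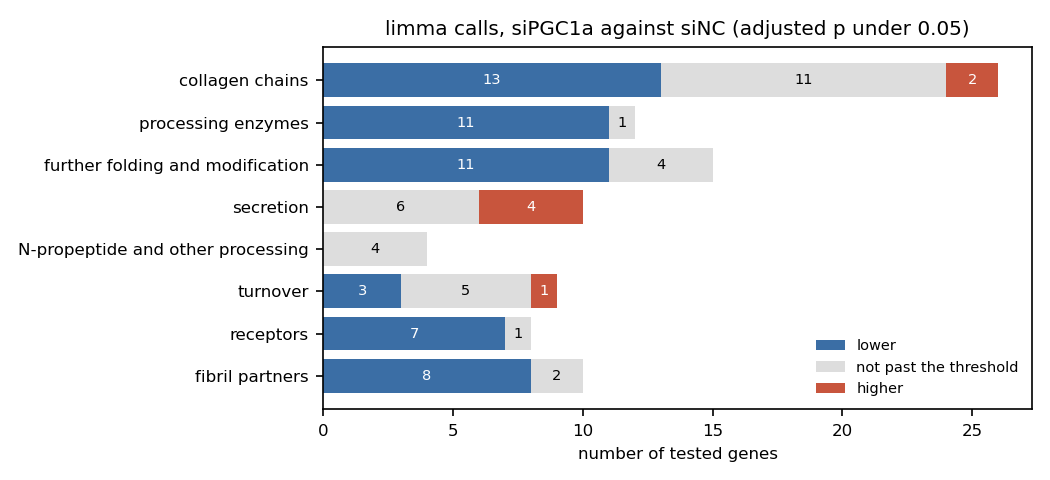
Number of tested genes lower, not past the threshold or higher in siPGC1a (limma, adjusted p under 0.05) for the collagen chains, the processing enzymes and the 6 further lists. Lower genes make up 11 of 12 processing enzymes and 7 of 8 receptors, and the secretion list holds 4 higher and 0 lower genes.

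A sequence word taken from earlier results of these same libraries was looked up in the members. The word, ACACCT, was searched in the longest annotated 3' UTR (GENCODE v29) of the tested genes that have one. It was present in 1176 of 2404 such genes that were lower (48.9%) and in 2476 of 8385 that were not (29.5%). Among the reported members it was present in 10 of 24 that fell (41.7%) and 4 of 14 that did not (28.6%). The 10 are COL1A1, COL1A2, COL4A1, COL8A1, COL14A1, P4HA2, PLOD1, PLOD2, SERPINH1 and LOXL3, and the other 4 are COL19A1, COL4A2, COL5A3 and COL6A2. COL19A1 and COL5A3 are the 2 chains that rose. The median 3' UTR length was 1170 bases for the members that fell and 893 for the other members, and over all tested genes it was 1806 bases for those lower and 1288 for the others. Because the word was taken from these same libraries, neither the shares over all genes nor those of the members are independent support for it. The part of the word in the results was not tested.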

How the data were processed

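RNA sequencing of 6 WM3248 libraries (3 siNC, 3 siPGC1a) was analysed from the table the authors deposited, which holds FPKM per gene symbol and library. Per the submitters' processing notes, the tools were STAR, Picard, featureCounts and DESeq2 and the build hg19; no version or role is listed. Gene lengths, annotation and strand setting are not given in the sources used here. GEO's labels do not say whether libraries of a group are separate cultures, so p-values reflect only library-to-library spread, possibly technical. No 2 libraries were copies: at most 17 tested genes had the same value in any pair.

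Rows with a mean FPKM of at least 1 (PPARGC1A kept regardless; 12020 rows) were fitted as log2(FPKM + 1) with limma 3.58.1 in R 4.3.3 (mean-variance trend, two-sided, no replicate block, Benjamini-Hochberg over all rows, threshold 0.05). The script was tested on simulated data. Differences are siPGC1a minus siNC and understate the change of low genes. Partner ratios used exact permutation tests. Reads were recovered from single-exon miRNA genes (58 to 70 values per library), and reads per member rest on GENCODE v29 exon lengths, so both are approximate. Promoters come from RefSeq (GRCh38.p14), another build than the table. The members, lists and named genes were chosen with earlier results of these data known. Named were every reported member and, per further list and direction, up to 2 genes with the smallest adjusted p. Alternatives covered pseudocount, filter, scaling, trend, weights, block and leaving out each library.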

Additional observations from a re-analysis of the deposited data

How the results depend on the processing

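Over 15 other settings, 27 of the 38 reported members kept their direction and side of the threshold in every setting that tested them; chains under 5 FPKM were not tested at the filter of 5 FPKM. The counts of lower chains (12 to 17 of 26) and lower enzymes (10 or 11 of 12) stayed within 1.5 times of those reported. The count of higher chains went from 2 to 3 with array weights, to 1 without a filter and, with fewer chains tested, at a filter of 5 FPKM (where 10 of 16 chains were lower), and ranged from 1 to 2 when 1 library was left out: it was 1 without siNC replicate 1 or 3 or siPGC1a replicate 1 or 2, where COL5A3 lost its call. Quantile normalization gave 17 lower chains, and COL4A2 and COL6A1 passed there, with array weights, with the block, at the stricter filter and without siPGC1a replicate 2. COL6A2 passed with the block (adjusted p = 0.0466) and without siPGC1a replicate 2 (0.0444), and COL18A1 in both (0.0463 and 0.0379) and with quantile normalization (0.00588). PLOD3 and COL15A1 also passed with quantile normalization, and COL7A1 there and with array weights. The log2 difference of COL27A1, 0.06 with all libraries, ranged from -0.003 (without siPGC1a replicate 2) to 0.139 (without siPGC1a replicate 3). With a pseudocount of 1 the log2 difference of the COL1A1 to COL1A2 ratio was 0.31 in place of 0.48, by construction of the pseudocount at these low levels. The replicate block gave 17 lower and 2 higher chains and 11 lower enzymes. The labels do not say that a replicate number marks a shared culture or day, so the numbers were not taken as pairs. Same-numbered libraries deviated together by r = 0.0766, 0.261 and -0.0575, and differently numbered ones by r of -0.331 to 0.254. These values do not settle whether the libraries were paired. Among members, depth limits chiefly those under the filter.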
